A study of Mus musculus with 4 samples.

Results

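The core autophagy machinery was represented by 38 of the 55401 genes counted. These genes were chosen by name for their place in the pathway, with earlier results of these data known. They comprised 5 genes of the ULK complex, 6 of the PI3K complexes, 6 for ATG9, ATG2 and the WIPI proteins, 11 of the conjugation step, 5 LC3 and GABARAP genes, 2 cargo receptors and 3 genes of the lysosome and its transcriptional control. RNA was measured in E18.5 fetal oocytes with SMART-Seq2, a full-length amplification method for small amounts of RNA, in 2 samples from normal diet (ND) mothers and 2 from high-fat diet (HFD) mothers. The mothers were ICR mice that had been on their diet for 4 months and were mated with males on the normal diet in both groups. The cells were female germ cells of the fetal ovary sorted by the surface marker SSEA-1, and each sample pooled oocytes of several fetuses. The labels call them primordial germ cells, and no source says that the samples came from separate litters, so p-values measure the spread between these samples.

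Autophagy encloses cytoplasm in a double membrane and delivers it to the lysosome for breakdown. The ULK kinase complex starts the process, a PI3-kinase complex marks the membrane with a lipid, and lipid transfer proteins let the membrane grow. Ubiquitin-like conjugation then attaches LC3 and GABARAP proteins to the membrane, where receptors such as p62 bring in cargo. In germ cells the pathway is known for clearing organelles and for the survival of oocytes around birth.

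The LC3 and GABARAP proteins are attached through a glycine near their carboxyl end, which is exposed when ATG4 cuts off the residues after it. The ends of the 5 coding sequences are shown because these closely related genes had their high counts in different libraries. They were read from the GENCODE M21 transcripts of GRCm38, run from 5′ to 3′ through the stop codon, and have the codon of that glycine in capitals.
Map1lc3a: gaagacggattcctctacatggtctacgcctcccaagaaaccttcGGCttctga
Map1lc3b: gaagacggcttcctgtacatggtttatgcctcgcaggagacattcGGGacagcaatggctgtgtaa
Gabarap: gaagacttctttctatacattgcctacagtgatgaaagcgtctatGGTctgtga
Gabarapl1: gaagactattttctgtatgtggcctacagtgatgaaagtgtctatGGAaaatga
Gabarapl2: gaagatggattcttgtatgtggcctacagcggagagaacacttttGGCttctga

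The glycine is residue 120 in Map1lc3a and Map1lc3b and residue 116 in the 3 GABARAP genes. It is followed by 5 residues in Map1lc3b and by 1 residue in each of the others. Over the translated proteins, Map1lc3a and Map1lc3b were identical at 81.8% of aligned residues and Gabarap and Gabarapl1 at 86.3%. The LC3 genes shared between 34.5% and 42.7% of residues with the GABARAP genes. In coding bases Gabarap and Gabarapl1 were 74.9% identical and Map1lc3a and Map1lc3b 77.5% identical, below the 90% set for a near copy.

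The libraries held 5723605 to 8223255 counts, and a value of 3 counts equals 0.365 to 0.524 CPM (the count as a share of the library's total, scaled up alike in all libraries). The 20 germ cell markers summed to 2701 to 5622 CPM, with 12 to 16 of them above background in each library. In the fit 10 of the 20 were higher and 10 lower in HFD. Ddx4, a germ cell helicase with 49 and 97 counts in ND, was at background in HFD with 5 and 14 counts, whereas Sycp1, of the synaptonemal complex, had 36 and 48 counts in ND and 9038 and 7978 in HFD. Markers of other cells varied between libraries of the same diet. The 12 stroma markers summed to 2848 and 72.4 CPM in the ND libraries and to 2362 and 7704 CPM in the HFD libraries. The 15 pregranulosa markers summed to 44.3, 428, 29.1 and 2106 CPM in the same order, the 8 endothelial markers to 24.7, 77.0, 714 and 45.4 CPM, the 8 blood markers to 1973, 2.18, 3.41 and 11.5 CPM and the 10 macrophage markers to 22.1, 14.8, 21.2 and 47.3 CPM. The part of other cells in the values given next was not tested, and fewer cells of a type and less RNA per cell cannot be told apart in pooled cells.

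Counts were first set against a background, taken as the 99th percentile of counts per kilobase of exon over 1093 olfactory receptor genes in the same library. Above this limit and above 3 counts stood 9 autophagy genes in ND replicate 1, 10 in ND replicate 2, 12 in HFD replicate 1 and 4 in HFD replicate 2. As shares of the 38 genes these were 23.7%, 26.3%, 31.6% and 10.5%, beside 24.8%, 22.2%, 13.5% and 15.3% of all protein-coding genes. Of the 38 genes, 16 exceeded background in no library, 13 in 1 library, 6 in 2, 2 in 3, and Map1lc3a in all 4. Protein-coding genes as a whole exceeded it in no library in 57.2% of cases and in all 4 libraries in 3.38%.

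**Figure D1:**
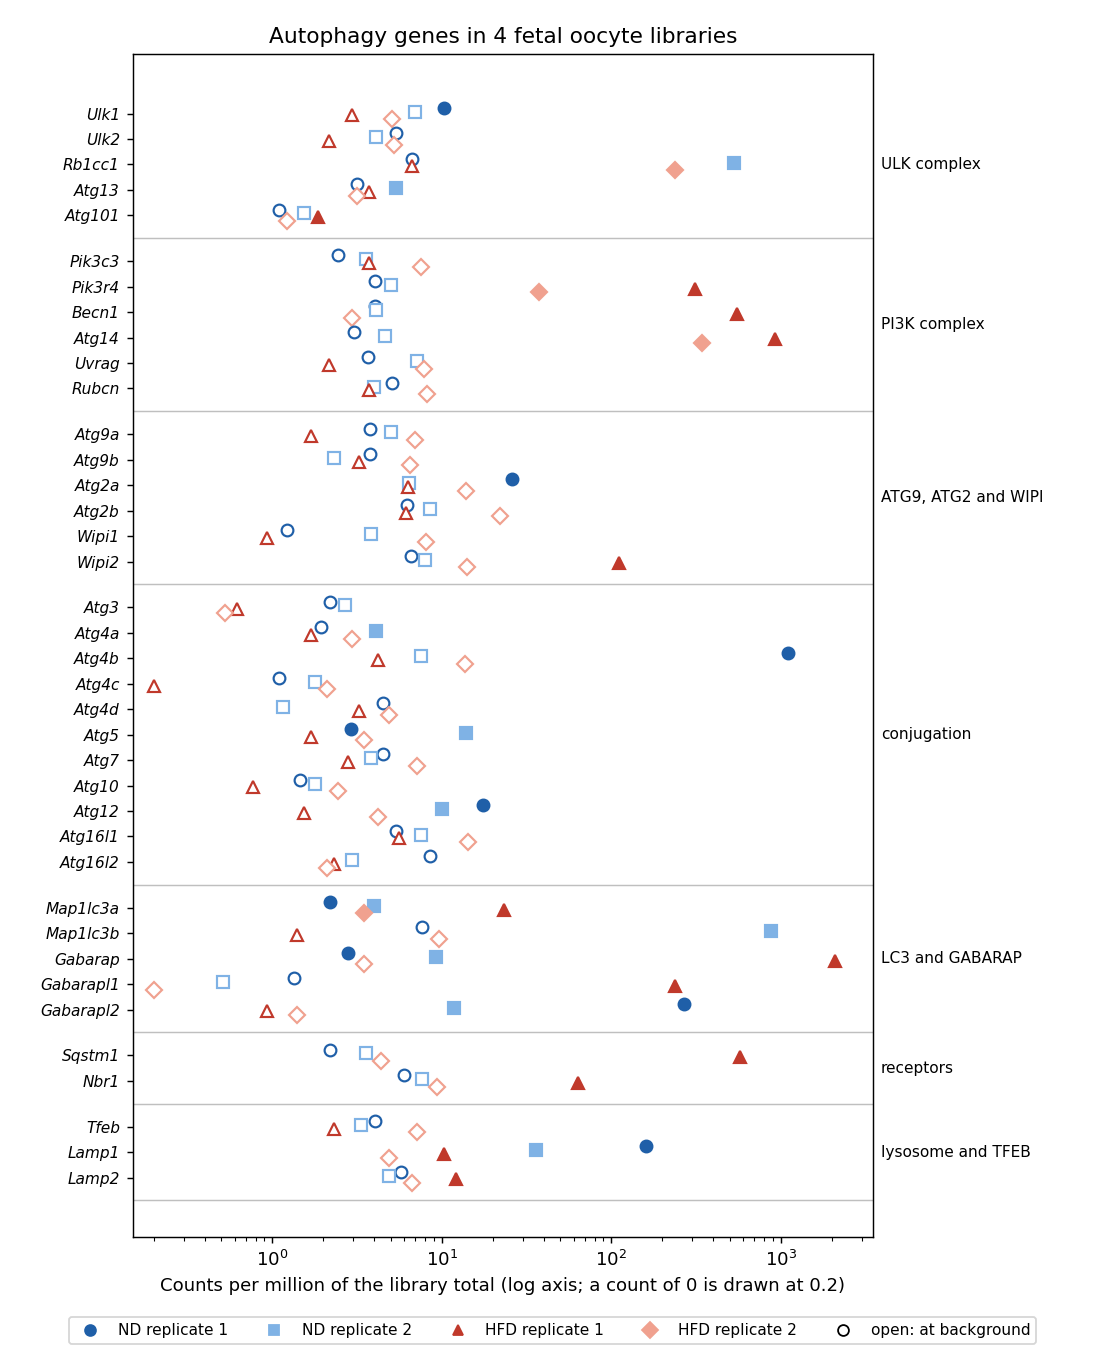
CPM (log axis) of the 38 autophagy genes, grouped by step of the pathway, with 1 symbol for each of the 2 ND and 2 HFD libraries and open symbols for values at background. Most filled symbols far to the right belong to 1 library of a gene, such as Atg4b in ND replicate 1 and Becn1 in HFD replicate 1, while Atg14 has filled symbols in both HFD libraries and Gabarapl2 in both ND libraries.

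The genes above background in both libraries of 1 diet and in neither of the other were 5 in number. Atg14 and Pik3r4, both of the PI3K complex, showed this in HFD, as did 0.722% of all protein-coding genes, and Atg5, Atg12 and Gabarapl2, all of the conjugation of LC3 and GABARAP, showed it in ND, as did 4.64% of all protein-coding genes. Another 7 genes exceeded background in HFD replicate 1 alone, 3 in ND replicate 1 alone and 3 in ND replicate 2 alone. No gene did so in HFD replicate 2 alone. Taken over the libraries, 34.2% of the 38 genes exceeded background in exactly 1 library, beside 22.2% of all protein-coding genes.

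To compare the diets, edgeR's quasi-likelihood test was fitted over all 19335 genes that passed the filter on low counts, and a gene was called at an adjusted p under 0.05 with a fold change over 1.5. Of the 38 autophagy genes 37 passed the filter, and Gabarapl1, which exceeded background in 1 library, did not. No autophagy gene was called in either direction, and among all genes tested 0% were called higher and 0% lower, with a smallest adjusted p of 0.406. An unadjusted p under 0.05 was found for 2 genes higher in HFD, Atg14 and Pik3r4, where 4.82% of all genes tested reached it in this direction. It was found for 4 genes lower in HFD, Ulk1, Atg3, Atg12 and Gabarapl2, where 6.41% of all genes did. DESeq2's Wald test gave an adjusted p to 19 of the autophagy genes and called 7 of them higher (36.8%, against 24.3% of all genes with an adjusted p) and 4 lower (21.1%, against 21% of all). limma-voom and edgeR's legacy fit called 0 of them.

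Fitted changes ran in both directions, 19 higher and 18 lower in HFD. Their median on the log2 scale was 0.05, beside 0.03 over all genes tested, while the median size of a change regardless of direction was 1.03, beside 0.70. On CPM normalized by the TMM method, the HFD libraries both exceeded the ND libraries for 6 of the 37 genes (16.2%, against 16.1% of all genes) and both lay below them for 8 (21.6%, against 17.8% of all). These shares lay near those of all genes tested. With 2 samples against 2, an exact permutation test of a single value cannot give a p below 1 in 3.

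The ULK complex, which receives the signals of nutrient supply, had its highest counts in Rb1cc1. Rb1cc1, the scaffold of the complex also called FIP200, had 55 and 4132 counts in ND and 43 and 1362 in HFD, with replicate 1 named first here and throughout. It was high in 1 library of each diet, and the groups overlapped. On TMM-normalized CPM the values were 6.72 and 574 in ND and 9.77 and 163 in HFD, with ND replicate 2 highest. Ulk1, the kinase, had 85 and 54 counts in ND and 19 and 29 in HFD, and its related kinase Ulk2 had 44 and 32 counts in ND and 14 and 30 in HFD. Both HFD values of Ulk1 lay below both ND values, but only ND replicate 1 exceeded background. The log2 fold change of Ulk1 was −1.20 (standard error 0.48, edgeR unadjusted p = 0.0474, adjusted p = 0.406), and that of Ulk2, at background in all libraries, was −0.53 (standard error 0.37). Atg13, which links the kinase to the scaffold, had 26 and 42 counts in ND and 24 and 18 in HFD. Atg101, its partner, had 9 and 12 counts in ND and 12 and 7 in HFD, all within a few counts of the background limit or under it.

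The PI3K complexes produce the lipid that marks the growing membrane, and ATG14 and UVRAG are alternative subunits that direct the complex to the autophagosome or to endosomes. Atg14 (ENSMUSG00000037526), on chromosome 14 from 47540893 to 47570649 of GRCm38, had 25 and 36 counts in ND and 5962 and 1955 in HFD. Both HFD libraries were far above both ND libraries, which were at background, and the groups did not overlap. Normalized by TMM these were 3.06 and 5.0 CPM in ND and 1355 and 234 CPM in HFD. Their means ± SD over n = 2 were 4.03 ± 1.38 and 795 ± 793. The fit gave a log2 fold change of 7.62 (standard error 2.29, edgeR unadjusted p = 0.0173, adjusted p = 0.406), and it ranged from 5.74 without HFD replicate 1 to 8.40 without HFD replicate 2 when each library was left out in turn. The study names this gene from the same libraries, so its values are no independent evidence for it. The antisense gene Gm49004, which overlaps 5.53% of the exon bases of Atg14, had at most 3 counts in any library.

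Pik3r4, the VPS15 scaffold of the complex, had 33 and 39 counts in ND and 2012 and 215 in HFD. The groups did not overlap, and HFD replicate 1 was 8.30 times HFD replicate 2 in CPM. The fitted log2 fold change of 5.67 (standard error 2.02, edgeR unadjusted p = 0.0328, adjusted p = 0.406) became 2.32 without HFD replicate 1. Becn1, the beclin subunit, had 33 and 32 counts in ND and 3541 and 17 in HFD. It was thus high in HFD replicate 1 alone, and its log2 fold change of 6.57 (standard error 2.89) became −1.17 without that library. Of the exon bases of Becn1, 43.9% overlap those of Cntd1 on the other strand, which had 3 to 16 counts per library.

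The catalytic subunit and the other regulators were at background in all libraries. Pik3c3, the lipid kinase VPS34 itself, had 20 and 28 counts in ND and 24 and 43 in HFD. On TMM-normalized CPM the groups did not overlap, with a log2 fold change of 0.74 (standard error 0.42). Uvrag had 30 and 56 counts in ND and 14 and 45 in HFD, and Rubcn, an inhibitor of the endosomal complex, had 42 and 31 in ND and 24 and 47 in HFD, with a log2 fold change of 0.23 (standard error 0.40). The 6 genes together summed to 22.3 and 28.4 CPM in ND and to 1793 and 406 CPM in HFD, of which Atg14 made up 51.5% in HFD replicate 1 and 84.2% in HFD replicate 2. The high sums therefore came from Atg14, Pik3r4 and, in 1 library, Becn1, and not from the whole complex.

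Atg14 was also examined in sequence. The RefSeq promoter table of GRCm38.p6 gave a window of 250 bases before and 50 bases after its start, shown because Atg14 had the highest HFD counts of the genes above background in both HFD libraries. It lies at chr14:47568385-47568684, minus strand. This is inside the GENCODE span of the gene, whose 5′ end is at 47570649, so the 2 annotations place the start differently. The capitals mark CACGTG, the letters bound by E-box factors such as TFEB, at bases 250 to 255, across the RefSeq start.
Atg14 promoter: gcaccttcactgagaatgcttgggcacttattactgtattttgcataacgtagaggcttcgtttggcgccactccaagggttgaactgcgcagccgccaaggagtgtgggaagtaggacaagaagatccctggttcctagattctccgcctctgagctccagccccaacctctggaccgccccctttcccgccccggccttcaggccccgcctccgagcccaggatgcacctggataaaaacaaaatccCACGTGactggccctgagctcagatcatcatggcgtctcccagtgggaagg

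The 6 letters read the same on both strands. They were found in the windows of 6 of the 32 autophagy genes that the table holds, namely Atg14, Rubcn, Atg3, Atg5, Atg7 and Lamp1, and in 8.09% of all 27025 genes of the table. The longer TCACGTGA, which contains it, was found in Atg3 alone of these 32 and in 1.13% of all genes. Of the genes with CACGTG, Atg14 had a positive fitted change and Atg3, Atg5 and Lamp1 a negative one, while Rubcn and Atg7 had changes near 0. Atg3, Atg7 and Rubcn were at background in all libraries. A match describes the letters of these windows only.

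Growth of the membrane depends on ATG9, a lipid scramblase carried in vesicles, on the lipid transfer proteins ATG2A and ATG2B, and on the WIPI proteins that bind the lipid. Wipi2, which recruits the conjugation machinery, had 54 and 62 counts in ND and 719 and 81 in HFD. It exceeded background in HFD replicate 1 alone. A log2 fold change of 3.50 (standard error 1.61) became 0.23 without that library. Atg2a had 213 and 50 counts in ND and 41 and 80 in HFD, with ND replicate 1 alone above background. The other genes of this step were at background throughout: Atg2b had 51, 67, 40 and 127 counts in the libraries, ND first, Wipi1 had 10, 30, 6 and 46, Atg9a had 31, 39, 11 and 40, and Atg9b had 31, 18, 21 and 37. For Atg9b the log2 fold change was 0.55 (standard error 0.40).

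**Figure D2:**
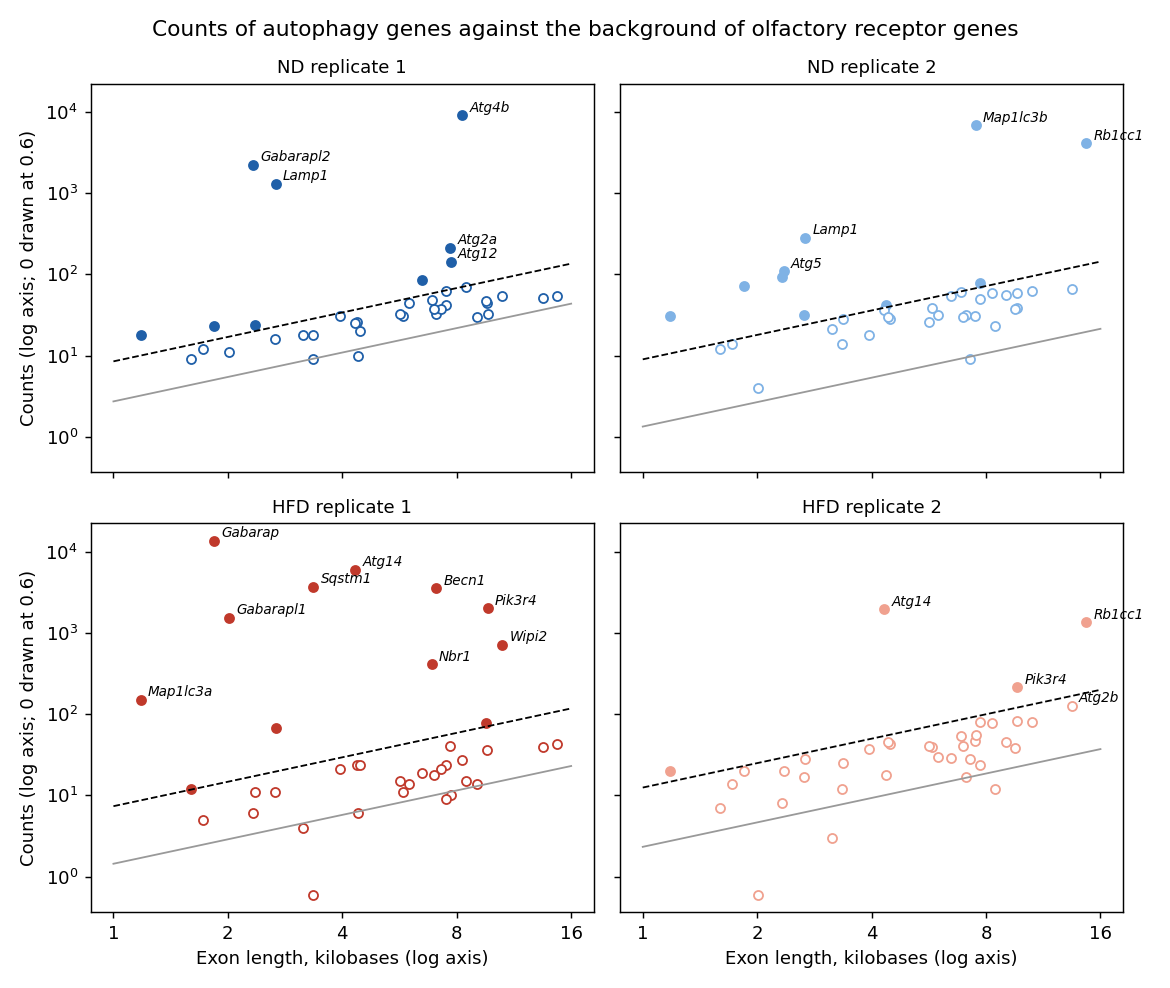
Counts of the 38 autophagy genes (log axis) against the length of their exons in kilobases (log axis) in each library, with the background limit as a dashed line, the median of the olfactory receptor genes as a gray line, and names at genes with more than 100 counts. In each library a few genes stand above the limit while the others, with medians of 15 to 33 counts, lie between the lines or near them.

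The conjugation step held 11 genes, of which 8 were lower and 3 higher in HFD in the fit. Of all 19335 genes tested, 9384 were lower and 9951 higher. Among the lower genes of the step, Atg3, Atg4c, Atg10 and Atg16l2 were at background in all libraries. None of the 11 exceeded background in an HFD library. Of all protein-coding genes, 13.5% did so in HFD replicate 1 and 15.3% in HFD replicate 2. Atg12 (ENSMUSG00000032905), the ubiquitin-like protein that is joined to ATG5, had 144 and 78 counts in ND and 10 and 24 in HFD. Both ND libraries were above background, both HFD libraries were at it, and the groups did not overlap. TMM-normalized CPM averaged 14.2 ± 4.78 in ND against 2.57 ± 0.42 for HFD (SD, n = 2). This gave a log2 fold change of −2.46 (standard error 0.59, edgeR unadjusted p = 0.00568, adjusted p = 0.406) and ranged from −2.83 to −2.15 when each library was left out in turn. DESeq2 gave it an adjusted p of 0.0922 when run on all genes and called it, at an adjusted p of 0.00822, when run on the genes that passed the filter.

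Atg5, the partner of ATG12, had 24 and 109 counts in ND and 11 and 20 in HFD. ND replicate 2 held the highest value, and the groups did not overlap on TMM-normalized CPM but did on CPM of the library total. A log2 fold change of −1.88 (standard error 0.85) became −0.31 without ND replicate 2. Atg3, the E2-like enzyme that hands LC3 to the lipid, had 18 and 21 counts in ND and 4 and 3 in HFD. All 4 values were at background. For Atg3 the log2 fold change was −2.00 (standard error 0.73, edgeR unadjusted p = 0.0298, adjusted p = 0.406).

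The proteases of the ATG4 family cut LC3 and GABARAP before conjugation and release them afterwards. Atg4b, the most active of them, had 9098 and 59 counts in ND and 27 and 78 in HFD. It was high in ND replicate 1 alone, which held 97.8% of its CPM summed over the libraries, and the log2 fold change of −6.17 (standard error 2.72) became −0.17 without that library. Atg4a had 16 and 32 counts in ND and 11 and 17 in HFD, and ND replicate 2 exceeded background. Atg4c had 9 and 14 counts in ND and 0 and 12 in HFD, and Atg4d had 37 and 9 in ND and 21 and 28 in HFD, all at background. A near copy of Atg4a, Atg4a-ps, had 0 counts in every library. A stretch of 508 bases in a Syt6 transcript was 99.4% identical to Atg4a. Syt6 lies on chromosome 3, as does Atg4a-ps, which matched at the same identity over 1191 bases. Syt6 had 27 and 27 counts in ND and 8 and 50 in HFD.

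The remaining enzymes and scaffolds of the step were at background in all libraries. Atg7, the E1-like enzyme, had 37 and 30 counts in ND and 18 and 41 in HFD. Atg10, the E2-like enzyme for ATG12, had 12 and 14 counts in ND and 5 and 14 in HFD. Atg16l1, which places the ATG12 conjugate on the membrane, had 44 and 59 counts in ND and 36 and 82 in HFD, and its relative Atg16l2 had 70 and 23 in ND and 15 and 12 in HFD. Apart from Atg4b, the 11 genes of the step thus had between 0 and 144 counts per library.

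The LC3 and GABARAP genes, whose coding ends are given above, held some of the highest levels of the pathway, in different libraries. Map1lc3b had 63 and 6879 counts in ND and 9 and 55 in HFD. Its high value was in ND replicate 2 alone, and the log2 fold change of −6.79 (standard error 2.81) became −0.93 without that library. The pseudogene Gm6055, 99.7% identical to Map1lc3b over 378 bases, had 25 counts in ND replicate 2 and 0 in the others. Map1lc3a had 18 and 31 counts in ND and 150 and 20 in HFD. It was above background in all 4 libraries, the groups overlapped, and its log2 fold change of 2.48 (standard error 1.30) became −0.56 without HFD replicate 1.

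Gabarapl2 (ENSMUSG00000031950), also called GATE-16 and at work in the late steps of autophagy, had 2224 and 92 counts in ND and 6 and 8 in HFD. Both ND libraries were above background, both HFD libraries were at it, and the groups did not overlap. TMM-normalized CPM averaged 142 ± 183 in ND against 1.16 ± 0.29 for HFD (SD, n = 2). A log2 fold change of −6.92 was fitted (standard error 1.99, edgeR unadjusted p = 0.0129, adjusted p = 0.406), against −3.51 without ND replicate 1. The genome holds 6 processed pseudogenes over 90% identical to its coding sequence, which had at most 9 counts each in any library.

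Gabarap had 23 and 72 counts in ND and 13572 and 20 in HFD. The value of HFD replicate 1 was 228 times the next highest in CPM, and the log2 fold change of 7.91 (standard error 3.65) became −1.53 without it. Gabarapl1 had 11 and 4 counts in ND and 1527 and 0 in HFD. Like Gabarap, it was high in HFD replicate 1 alone, and a gene on the other strand, 1700101I11Rik, which overlaps 28.3% of its exon bases, had 2 to 10 counts per library. On the scale of reads per kilobase of exon, scaled as CPM (RPKM), Gabarap reached 1140 in HFD replicate 1 and Gabarapl1 117, while Map1lc3b reached 117 in ND replicate 2 and Gabarapl2 116 in ND replicate 1. In HFD replicate 2 the 5 genes together had 103 counts, and only Map1lc3a exceeded background.

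The receptors bind ubiquitin-tagged cargo on one side and LC3 on the other. Sqstm1, which encodes p62, had 18 and 28 counts in ND and 3711 and 25 in HFD, and Nbr1, its relative, had 49 and 60 in ND and 410 and 54 in HFD. Both were above background in HFD replicate 1 alone. Mrnip, on the other strand of 17.3% of the exon bases of Sqstm1, had 1 to 11 counts. For Sqstm1 the log2 fold change of 7.11 (standard error 2.91) became −0.14 without that library. Of the 8 endothelial markers, Kdr had 4398 counts in HFD replicate 1 against 28 to 67 in the others and made up 681 of the 714 CPM summed there. Cldn5 was also highest in that library, with 70 counts against 7 and 12 in ND and 10 in HFD replicate 2. In CPM, Emcn was highest in ND replicate 1, Pecam1 in ND replicate 2, and Cdh5, Tek, Egfl7 and Esam in HFD replicate 2. The part of endothelial cells in the high values of Becn1, Gabarap, Gabarapl1, Sqstm1 and Nbr1 there was not tested.

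At the lysosome, Lamp1, an abundant membrane glycoprotein, had 1314 and 283 counts in ND and 67 and 28 in HFD. The groups did not overlap, and HFD replicate 1 was still above background. Its log2 fold change of −3.43 (standard error 1.5) ranged from −5.01 without HFD replicate 1 to −2.12 without ND replicate 1. Lamp2, its relative needed for fusion, had 47 and 38 counts in ND and 78 and 38 in HFD. Tfeb, the factor that switches on lysosomal and autophagy genes, had 33 and 26 counts in ND and 15 and 41 in HFD, all at background.

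**Figure D3:**
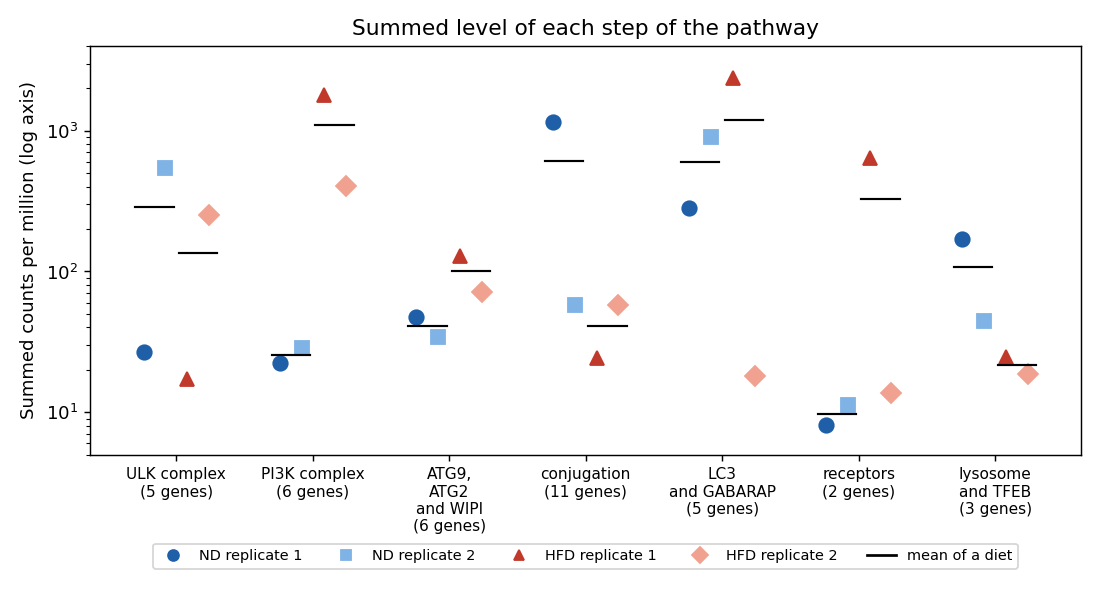
Summed CPM (log axis) of the genes of each step in the 4 libraries, with the mean of each diet as a line. The PI3K complex sums to 22.3 and 28.4 in ND and to 1793 and 406 in HFD, and the LC3 and GABARAP genes range from 18 in HFD replicate 2 to 2364 in HFD replicate 1.

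Summed by step on CPM of the library total, the 2 diets did not overlap for the PI3K complex, for ATG9, ATG2 and the WIPI proteins, for the receptors, which were higher in HFD, and for the lysosome, which was lower. For ATG9, ATG2 and the WIPI proteins the sums were 47.4 and 34.0 CPM in ND and 130 and 71.8 CPM in HFD, and for the receptors 8.15 and 11.3 CPM in ND and 638 and 13.8 CPM in HFD. In both of these steps HFD replicate 2 held no gene above background. On TMM-normalized CPM the receptors overlapped, with sums of 8.19 and 12.2 in ND and 937 and 9.46 in HFD, and those of ATG9, ATG2 and the WIPI proteins were 47.7 and 37.0 in ND and 190 and 49.2 in HFD. The lysosomal genes summed to 170 and 44.4 CPM in ND and to 24.8 and 18.7 CPM in HFD. Lamp1 made up 94.3% of the sum in ND replicate 1 and 81.6% in ND replicate 2. In the fit 2 of the 3 genes of this step, Lamp2 and Tfeb, were higher in HFD. The other steps overlapped: the ULK complex summed to 26.6, 547, 17.3 and 253 CPM in ND replicates 1 and 2 and HFD replicates 1 and 2, the conjugation step to 1156, 57.3, 24.5 and 57.8 CPM, and the LC3 and GABARAP genes to 284, 906, 2364 and 18 CPM. On TMM-normalized CPM the conjugation step did not overlap either, with 1162 and 62.3 in ND and 35.9 and 39.6 in HFD. Where a step was high, 1 gene usually held most of it, as Rb1cc1 with 96.7% of the ULK sum in ND replicate 2, Atg4b with 95.7% of the conjugation sum in ND replicate 1 and Gabarap with 88.9% of the LC3 and GABARAP sum in HFD replicate 1.

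Of the 14 genes with a log2 fold change beyond 2 in either direction, 5 changed sign when HFD replicate 1 was left out, namely Becn1, Map1lc3a, Gabarap, Sqstm1 and Nbr1. Of the 37 genes tested, 16 changed sign when some library was left out. The 11 genes called by DESeq2 were Atg14, Pik3r4, Becn1, Wipi2, Gabarap, Gabarapl1 and Sqstm1 on the higher side and Atg4b, Map1lc3b, Gabarapl2 and Lamp1 on the lower side. Both libraries of the higher diet were above background in 4 of these, namely Atg14, Pik3r4, Gabarapl2 and Lamp1. The fold changes of those called by DESeq2 alone are described because of that call, so they were chosen after their values were seen.

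**Figure D4:**
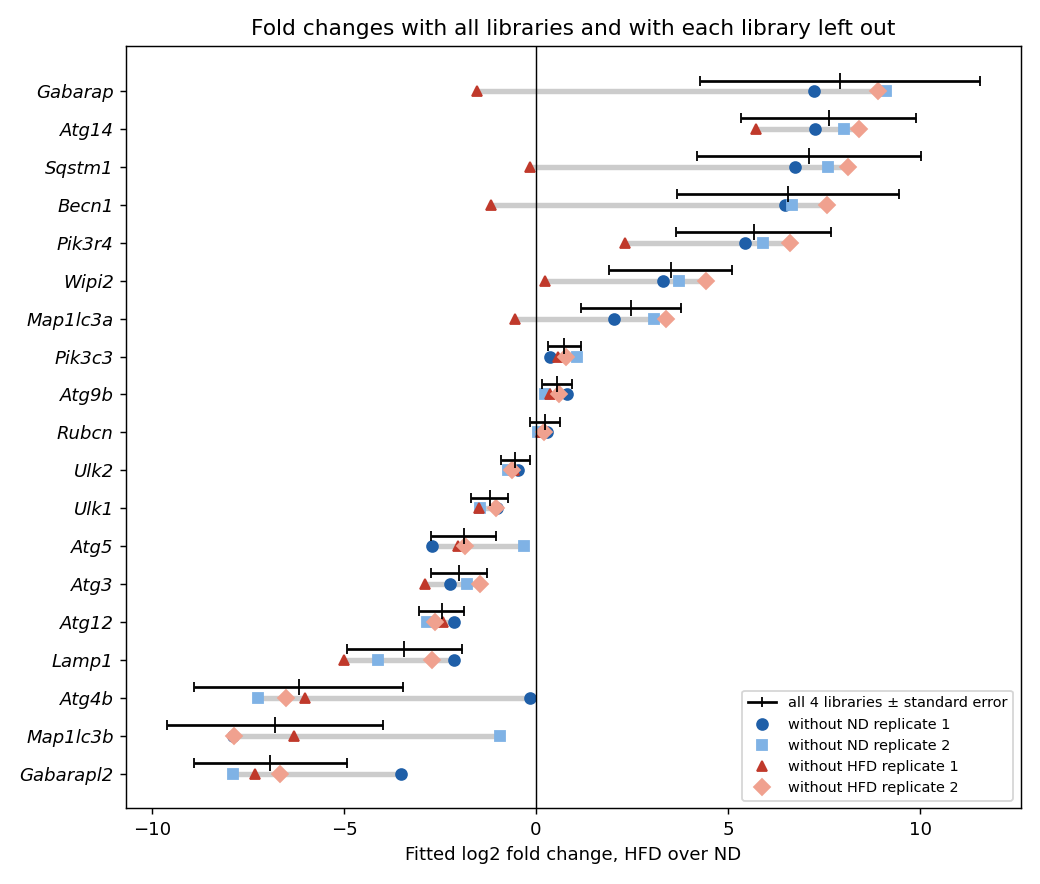
Fitted log2 fold change of HFD over ND for 19 autophagy genes, with the fit on all 4 libraries as a black mark with its standard error and 1 symbol for each fit without 1 library. Atg14 stays between 5.74 and 8.40 and Atg12 between −2.83 and −2.15, while Gabarap, Becn1, Sqstm1 and Map1lc3a cross 0 without HFD replicate 1.

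Beyond the core machinery, 88 other genes of autophagy regulation, cargo reception, fusion, lysosomal function and nutrient signalling were read from the same fit. Of these 84 were tested, 35 were higher and 49 lower in HFD, and 0 were called by edgeR. An unadjusted p under 0.05 was found for 6 on the higher side (7.14%, against 4.82% of all genes tested) and 5 on the lower side (5.95%, against 6.41%), close to those shares. The receptors Tax1bp1 and Tollip were high in both HFD libraries: Tax1bp1 had 64 and 83 counts in ND and 735 and 18723 in HFD, and Tollip had 26 and 26 in ND and 690 and 7233 in HFD. Their log2 fold changes were 6.96 (standard error 2.51) and 7.23 (standard error 2.10), with an edgeR adjusted p of 0.406 each. The others on the higher side were Ctsd, the lysosomal genes Gla and Psap, and Mitf, a relative of Tfeb. Ctsd encodes cathepsin D and had 4764 of its counts in HFD replicate 1. Gla, at background in all libraries, had 14 and 8 counts in ND and 24 and 35 in HFD. Psap had 23 and 13 in ND and 19 and 46 in HFD, and Mitf 14 and 12 in ND and 24 and 330 in HFD. Psap and Mitf each exceeded background in 1 library. Among those on the lower side were Tex264, a receptor for the endoplasmic reticulum with 630 and 2564 counts in ND and 16 and 72 in HFD, Atp6v0d1 of the proton pump, Rheb, the activator of mTORC1, and Flcn. Of these, Flcn exceeded background in 1 library only. As among the core genes, few exceeded background throughout, namely 4 of the 88 in all 4 libraries, while 31 did so in none.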

How the data were processed

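Gene counts were used as deposited, 1 library per sample. Per the submitters' processing notes, the authors used FastQC and Trim Galore on the reads, HISAT2 for alignment to mm10 and featureCounts for the counts per gene. Which annotation release and strand setting were used, and how multiply aligned reads were treated, is not given in the sources used here, so overlapping genes and near copies are uncertain. GENCODE M21 supplied gene names, coordinates and exon lengths and lacked 260 of 55401 identifiers. The autophagy genes, lists and background measure were chosen with earlier results of these data known.

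Diets were compared in R 4.3.3 with edgeR 4.0.16 (TMM, filterByExpr, glmQLFit with legacy FALSE, two-sided, Benjamini-Hochberg adjustment over all genes tested), with limma 3.58.1 and DESeq2 1.42.0 as alternatives. The functions were tested on simulated data. Standard errors were obtained by dividing the size of the log2 fold change by √F. Counts are given for every autophagy gene. Fold changes are given for those with an unadjusted p under 0.05, with diets that did not overlap on TMM-normalized CPM, or above background in all libraries, and, added later, for those called by DESeq2. Near copies were searched with blastn on coding sequences (at least 90% identity over 150 bases). CPM use the library total. Reads carry no molecular identifiers, so floors cover counting error only. No protein sequences were used here. Of the other pathway genes with an unadjusted p under 0.05, 1 is not named here.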

Additional observations from a re-analysis of the deposited data

How the results depend on the processing

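Libraries held 5723605 to 8223255 counts, with 2 per diet. The number of genes called, 0 in edgeR, was 2539 in DESeq2 on all genes, 2102 in DESeq2 on the genes that passed the filter and 34 in edgeR's legacy fit. Autophagy genes called higher numbered 7 and 5, and those called lower 4 and 4, in the DESeq2 fits on all and on filtered genes. Those with an unadjusted p under 0.05, 6 in edgeR, numbered 12 and 13 in these fits, 3 in limma-voom, 3 in the legacy fit and 3 with a replicate block, and from 4 to 13 when each library was left out, the highest without HFD replicate 2. No source says whether the replicate numbers pair the libraries. Differences between replicates had a correlation of 0.01 between the diets. That value cannot show that the libraries were unpaired, because large differences within a diet could hide a shared batch. The replicate block called 0 autophagy genes. When each library was left out, the log2 fold change of Becn1 ranged from −1.17 to 7.57, that of Gabarap from −1.53 to 9.13, that of Sqstm1 from −0.14 to 8.12 and that of Map1lc3a from −0.56 to 3.39, with the lowest value of each without HFD replicate 1. Above background stood 15 autophagy genes in ND replicate 1, 23 in ND replicate 2 and 13 in HFD replicate 2 with the 95th percentile as the limit, and 5 in ND replicate 2 and 8 in HFD replicate 2 with 10 CPM. The TMM factors, which scale the library sizes, were 1.02 and 0.94 in ND and 0.69 and 1.51 in HFD. Scaling by library size only, without these factors, moved the median log2 fold change of all genes tested from 0.03 to 0.21. It changed the sign of no fold change given for an autophagy gene. On CPM of the library total, the diets overlapped for Ulk2, Rubcn, Atg9b, Atg5 and Map1lc3b but no longer for Sqstm1, Nbr1, Lamp2 and Atg16l2, so that 7 genes in place of 6 were higher and 6 in place of 8 lower in both HFD libraries. The causes of these differences were not tested.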
